A study of Mus musculus with 6 samples.

Results

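The kinesin superfamily genes of the mouse were examined in the cochlear sensory epithelium of Kir2.1-OE and control mice. Members were all gene symbols made of Kif, a number and an optional letter a to c, which gave 37 of the 24411 symbols in the count tables. RNA came from the sensory epithelium at P9, and each library was 1 pool of 8 cochleae from 4 mice, with 3 libraries per genotype. Kir2.1-OE mice were compound heterozygous for Otof rtTA and tet-o-Kir2.1-IRES-tau-lacZ, so that DOX drives the inwardly rectifying K+ channel Kir2.1 (gene Kcnj2) where the Otof promoter is active, which is mainly the inner hair cells. Control mice were littermates heterozygous for Otof rtTA alone. Both genotypes had the C57BL/6N background, included either sex, carried the rtTA allele and drank water with 0.5 mg/ml DOX. Inner hair cells are a small part of the dissected epithelium, which also holds outer hair cells, supporting cells and nerve endings. In such bulk RNA, a change in the number of cells of a type and a change in RNA per cell cannot be told apart.

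Kinesins are motor proteins that use ATP to walk along microtubules or to change their length. In neurons, they carry vesicles, mitochondria and other cargo from the cell body towards the nerve terminal, and in dividing cells another set builds the spindle, moves chromosomes and completes cytokinesis. Further members work in cilia or shorten microtubules. Hair cells and spiral ganglion neurons are postmitotic, and the dissected tissue can also hold dividing cells of other types.

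The libraries held between 35430940 and 41205047 reads assigned to genes. Kcnj2 checked the genotype labels, with 3612, 3813 and 2213 normalized counts in the Kir2.1-OE libraries and 236, 228 and 226 in the controls, a 14.0-fold higher mean. All 10 hair cell markers examined were detected in each library, and their summed counts were 42979 to 47622 in Kir2.1-OE and 45484 to 50698 in control. Ocm alone averaged 17755 and 21916 of these. Single markers differed in direction, with log2 fold changes from -0.74 (Calb1) to 1.44 (Loxhd1). Normalized counts are reads scaled to a common library size, without division by length. A gene was called higher or lower when the adjusted p was below 0.05 by edgeR's quasi-likelihood test over the 15303 genes that passed the count filter and the fold change was above 1.5.

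Of the 37 kinesin genes, 34 passed the count filter. Kif2b, a spindle kinesin, had no read in any library, which allows a share of up to 8.47e-06% of the assigned reads in the smallest library. Kif12 had 1 read in 1 library and none in the others. Kif6, associated with motile cilia, had 3 to 17 reads per library. These 3 genes were not tested.

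Among the 34 kinesins tested, 17 were called higher in Kir2.1-OE and 0 were called lower. Over all genes tested, 15.5% were called higher and 5.08% were called lower. At an adjusted p below 0.05 without the fold threshold, 20 kinesins were higher and 0 lower, compared with 27.3% and 23.5% of all genes tested. DESeq2's Wald test with the fold threshold also gave 17 higher. The log2 fold changes ran from -0.27 for Kif9 to 2.24 for Kif5a, with 32 positive and 2 negative values. Their median was 0.71, against 0.0096 over all genes tested. For 24 of the 34 kinesins, the lowest Kir2.1-OE library was above the highest control, compared with 31.7% of all genes tested. The opposite order was found for 0 kinesins and for 29.9% of all genes tested.

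**Figure D1:**
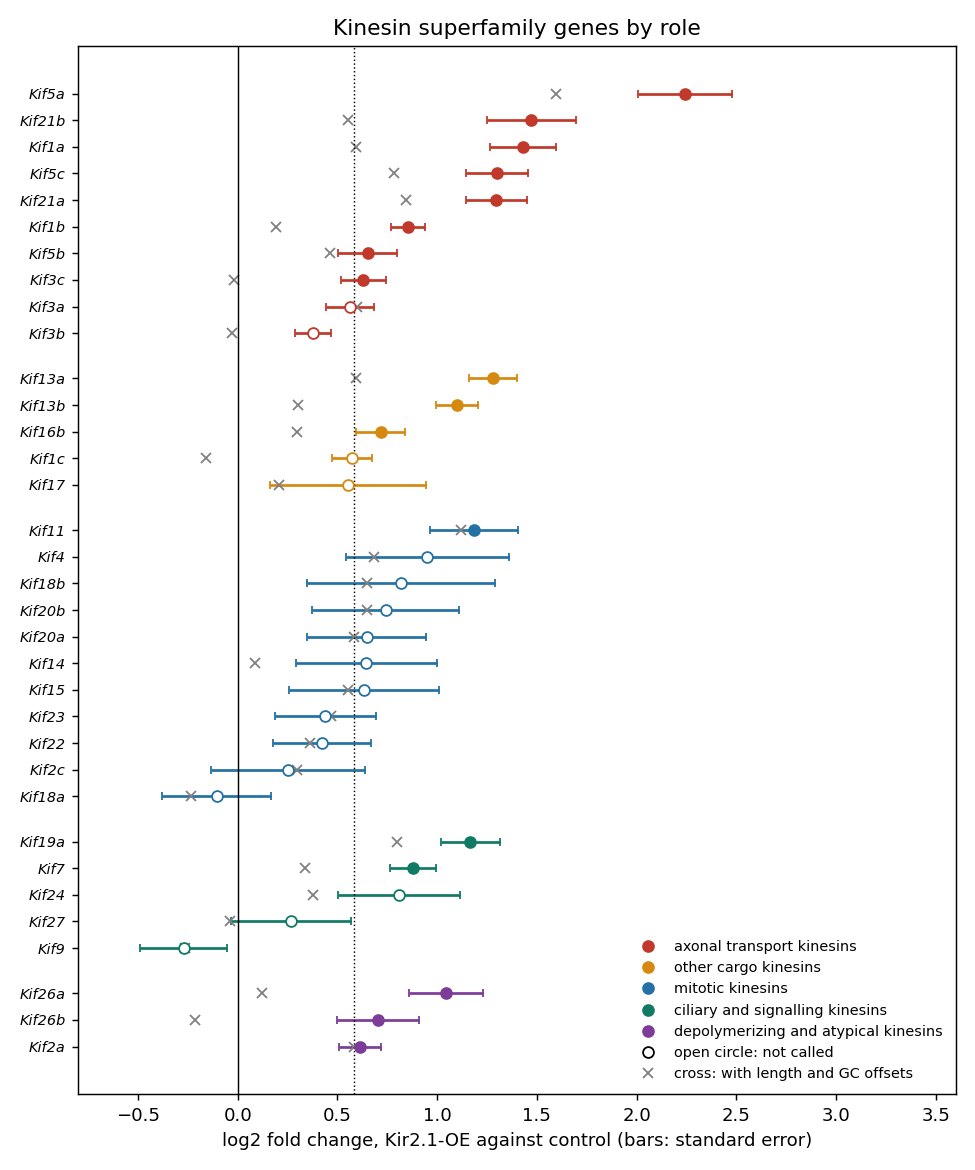
Log2 fold change of the 34 kinesins tested (x axis, Kir2.1-OE against control), grouped by role, with bars for the standard error; filled circles are called higher, the dotted line marks a fold change of 1.5 and grey crosses give the value from the fit with length and GC offsets. The axonal transport group reaches 2.24 (Kif5a), and most crosses lie to the left of their circles. The widest error bars are those of mitotic Kif18b and Kif4, followed by Kif17 of the other cargo group.

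By role, the 17 called genes comprised 8 of 10 axonal transport kinesins, 3 of 5 other cargo kinesins, 1 of 11 mitotic kinesins, 2 of 5 ciliary and signalling kinesins, and all 3 depolymerizing and atypical kinesins. Over all genes tested, 15.5% were called higher. The groups also differed in abundance and in transcript length, which are given beside the counts below.

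All axonal transport kinesins were higher in each Kir2.1-OE library than in any control library, and 8 of these 10 genes were called higher. The shares over all genes tested were 31.7% and 15.5%. The longest transcripts of the axonal genes had a median of 6615 nt, and 44.5% of all genes of 6000 to 8000 nt were called higher. Their median log2 fold change was 1.08, with standard errors between 0.09 and 0.24. The summed normalized counts were 50610, 40822 and 48319 in Kir2.1-OE and 21954, 27659 and 22280 in control, so the groups did not overlap. The largest change was that of Kif5a, a neuron-enriched heavy chain of conventional kinesin that carries cargo such as neurofilaments along axons.

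Kif5a (ENSMUSG00000074657.5, mm10 chr10:127225696-127263348, minus strand) had 3394, 2159 and 3374 normalized counts in Kir2.1-OE and 595, 839.6 and 445 in control. The lowest Kir2.1-OE library was thus more than double the highest control library. The fold change of the means was 4.75 and the log2 fold change 2.24 (SE 0.24, adjusted p = 0.000174). Kif5c (ENSMUSG00000026764.15, chr2:49619298-49774778, plus strand), the other neuronal heavy chain, had 3754, 2589 and 3894 counts against 1316, 1592 and 1246. It was also called higher, at a log2 fold change of 1.30 (SE 0.15, adjusted p = 0.000249), and its groups were clearly separated. Kif5b, the heavy chain found in most cell types, had 12783, 11068 and 10405 counts in Kir2.1-OE and 5654, 8774 and 7379 in control. Its log2 fold change of 0.65 (SE 0.15, adjusted p = 0.00522) passed the fold threshold by little, and it missed that threshold in the fits lacking Kir2.1-OE replicate 1 (0.55) and lacking control replicate 1 (0.50).

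The conventional kinesin heavy chains were also compared with each other. On the scale of normalized counts per kb of the longest annotated transcript, Kif5a averaged 473 in Kir2.1-OE and 99.5 in control, Kif5c 498 and 202, and Kif5b 1893 and 1205. Kif5b was the most abundant of the 3 in every library. Kif5a made up 16.8, 13.4 and 18.9% of their per-kb total in Kir2.1-OE and 7.72, 7.33 and 4.79% in control, and Kif5b 66.3% ± 5.41 and 79.8% ± 3.15 (SD, n = 3). Neither share overlapped between genotypes, and the two-sided exact permutation p was 0.1 for both, the smallest that 3 libraries against 3 allow. The Kif5c share was 17.3% ± 2.66 and 13.6% ± 1.83, and its groups overlapped (exact permutation p = 0.2). These 3 genes have longest transcripts of similar length, 6295 nt for Kif5a, 6032 nt for Kif5b and 6856 nt for Kif5c. Their GC content differs, at 53.8% for Kif5a, 41.1% for Kif5b and 47.5% for Kif5c. With the length and GC offsets described below, the log2 fold changes were 1.60 for Kif5a, 0.46 for Kif5b and 0.78 for Kif5c.

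In the kinesins that carry synaptic vesicle precursors, Kif1a and Kif1b were both called higher. Kif1a (ENSMUSG00000014602.15, chr1:93015464-93101951, minus strand), which is mostly neuronal, had 8773, 6991 and 10010 counts in Kir2.1-OE and 3318, 3755 and 2487 in control (log2 fold change 1.43, SE 0.16, adjusted p = 0.000228). Kif1b, which carries mitochondria or vesicle precursors depending on the isoform, had 8119, 6881 and 8190 counts against 4281, 4481 and 4071.5, and its log2 fold change was 0.85 (SE 0.09, adjusted p = 0.000163). Neither gene had overlapping groups. Kif1c, a related motor of vesicles in many cell types, is described with the other cargo kinesins and had a smaller value of 0.57. Among these 3 genes, the per-kb share of Kif1a was 31.6% ± 4.60 in Kir2.1-OE and 21.4% ± 3.68 in control, that of Kif1b 22.8% ± 1.19 and 23.1% ± 1.11, and that of Kif1c 45.5% ± 5.77 and 55.6% ± 4.34 (SD, n = 3).

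The heterotrimeric motor, built from KIF3A with KIF3B or KIF3C and an associated subunit, serves both axons and cilia. Kif3a had 3134, 2626 and 3179.9 counts in Kir2.1-OE and 1898, 2386 and 1765 in control. Kif3b had 2309, 1995 and 2077 counts against 1526, 1813 and 1574. Kif3c, the most neuronal of these subunits, had 2459, 2096.5 and 2924 counts against 1565, 1705.5 and 1559. The genotypes did not overlap in these 3 genes, with smaller gaps than in Kif5a or Kif1a. Kif3c was called higher, at a log2 fold change of 0.63 (SE 0.11, adjusted p = 0.00167), but not without Kir2.1-OE replicate 3 (0.49). Kif3a (0.56, SE 0.12, adjusted p = 0.00388) and Kif3b (0.38, SE 0.09, adjusted p = 0.00677) passed the adjusted p and not the fold threshold. Kif3a was called higher in the fits lacking Kir2.1-OE replicate 2 (0.62) or control replicate 2 (0.70). The subunit Kifap3 was at 0.24 (SE 0.07, adjusted p = 0.0184), under the fold threshold. Among the 3 motor genes, the per-kb share of Kif3a was 55.9% ± 0.32 in Kir2.1-OE and 54.6% ± 2.27 in control, with overlap, and that of Kif3b 22.5% ± 1.78 and 25.0% ± 1.03, without overlap (SD, n = 3).

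**Figure D2:**
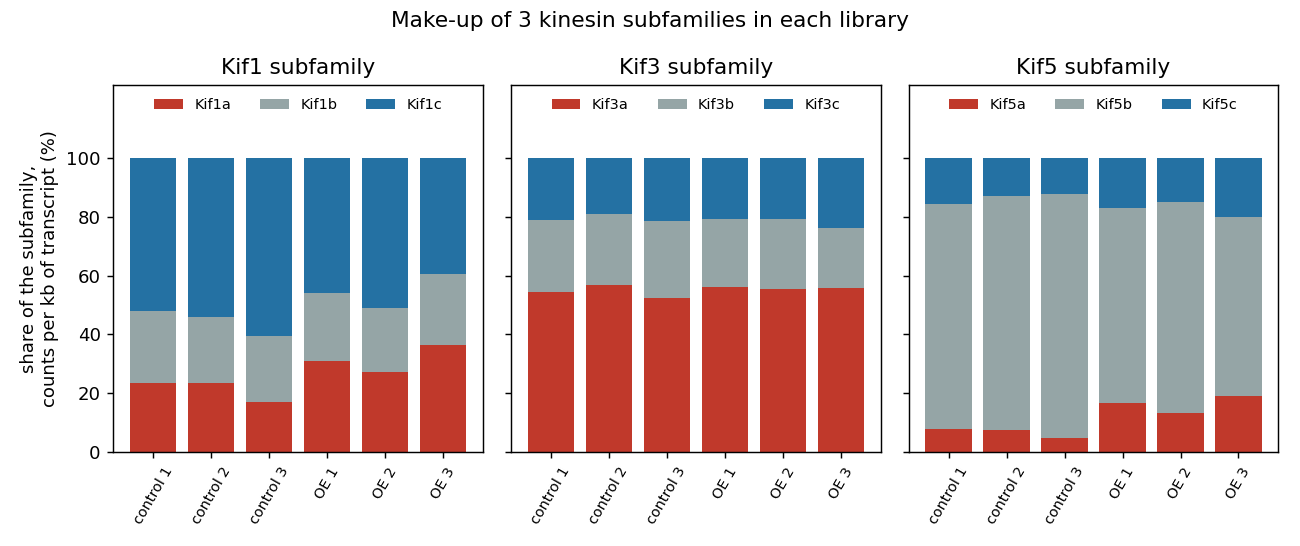
Share of each member (y axis, %) in the per-kb normalized counts of the Kif1, Kif3 and Kif5 subfamilies, with 1 stacked bar per library. The Kif5a segment covers 13.4 to 18.9% in Kir2.1-OE and 4.79 to 7.72% in control, and the Kif3a segment 55.6 to 56.2% and 52.3 to 56.9%.

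Kif21a and Kif21b encode motors that also restrain microtubule growth in axons and dendrites. Kif21a had 5476, 4119 and 3777 counts in Kir2.1-OE and 1640.4, 2148 and 1649 in control, a log2 fold change of 1.30 (SE 0.15, adjusted p = 0.000235). Kif21b was far less abundant, with 409.5, 297 and 489.8 counts against 159.5, 164 and 106, and its log2 fold change was 1.47 (SE 0.22, adjusted p = 0.00073). Both were called higher with no overlap between groups.

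Ratios within a library compare members of a subfamily free of its scaling. The log2 ratio of Kif5a to Kif5b was 1.60 higher in Kir2.1-OE, that of Kif5a to Kif5c 0.98 higher and that of Kif5c to Kif5b 0.62 higher. For Kif1a, the ratio to Kif1b was 0.59 higher and the ratio to Kif1c 0.86 higher, and the ratio of Kif3a to Kif3b was 0.19 higher. In each of these 6 pairs, the genotypes did not overlap, and the two-sided exact permutation p was 0.1, again the smallest possible (0.117 adjusted over the 7 pairs compared). The ratio of Kif21a to Kif21b overlapped, with a difference of -0.18 (exact permutation p = 0.7).

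Beside the axonal transport kinesins, 8 of 15 neuron markers were called higher, 1 (Uchl1, -0.80) was called lower and 6 were not called. The shares over all genes tested were 15.5% higher and 5.08% lower. With the length and GC offsets described below, 8 markers were called higher and 0 lower, against 6.44% and 3.4% of all genes. The median log2 fold change of these markers without offsets was 1.00. Their summed counts were 51581, 38444 and 76038 in Kir2.1-OE and 39895, 39103 and 29675 in control, and overlapped. None was at 0 in any library. Kir2.1-OE replicate 2 had the lowest marker sum of its group and also the lowest count for 8 of the 10 axonal genes, the exceptions being Kif5b and Kif21a. The part of neuronal content in the kinesin values was not tested.

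**Figure D3:**
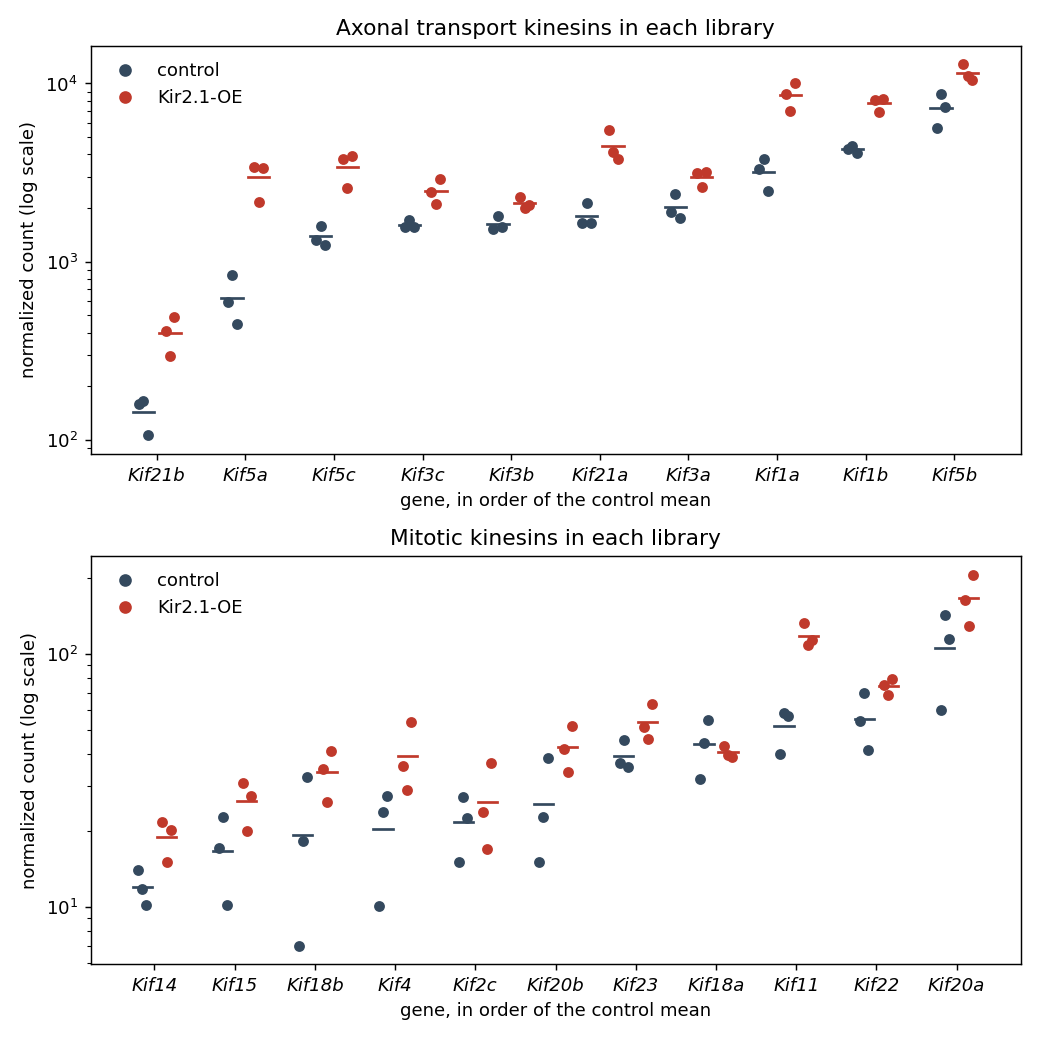
Normalized counts (y axis, log scale) of the axonal transport kinesins (top) and the mitotic kinesins (bottom) in each library, with points for the 3 libraries of each genotype and lines for their means. The Kir2.1-OE points of all 10 axonal genes lie above the controls, with Kif5a furthest apart, whereas 7 of 11 mitotic genes overlap. Over all genes tested, 31.7% had all Kir2.1-OE libraries above all controls.

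The mitotic kinesins were scarce and only Kif11 was called higher. Of 11 genes tested, 10 had a positive log2 fold change, with a median of 0.65, and 0 were called lower. The spread was wide, with standard errors between 0.22 and 0.47, more than that of most axonal genes. Mean normalized counts were 15.4 to 136 per gene, and the summed counts were 654, 533 and 732 in Kir2.1-OE and 302, 487 and 445 in control. The sums did not overlap, but 7 of the 11 genes did.

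On the per-kb scale, the mitotic genes averaged 1.34 (Kif14) to 28.7 (Kif20a) in control, and the axonal genes 15.5 (Kif21b) to 1205 (Kif5b). Among all genes with a mean count below 200, 14.5% were called higher, and 2 of 16 kinesins were (Kif11 and Kif26a). From 200 to 2000 counts the share was 17.4% of all genes and 6 of 7 kinesins, and at 2000 and over 12.8% and 9 of 11.

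Kif11 (ENSMUSG00000012443.4, chr19:37376403-37421859, plus strand), which slides spindle microtubules apart, had 132, 108 and 113 counts in Kir2.1-OE and 40.1, 58.2 and 57.0 in control. The lowest Kir2.1-OE library was well above the highest control library. Its log2 fold change was 1.18 (SE 0.22, adjusted p = 0.00201), and it was called in each fit that left out 1 library.

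Kif4, Kif14 and Kif23 were separated between genotypes without passing the adjusted p. Kif4, a chromosome-arm motor, had 35.9, 29.0 and 54.0 counts in Kir2.1-OE and 10.03, 23.6 and 27.5 in control (0.95, SE 0.41, adjusted p = 0.0778). Kif14, which acts in cytokinesis, had 21.6, 14.99 and 20.1 counts against 14.0, 11.8 and 10.2 (0.65, SE 0.35, adjusted p = 0.155). Kif23, a component of the central spindle, had 51.3, 46.0 and 63.5 counts against 37.1, 45.4 and 35.6 (0.44, SE 0.25, adjusted p = 0.172). In Kif14 and Kif23 the gap was under 1 count.

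The other mitotic genes overlapped between genotypes. Kif20a, a cytokinesis motor and the most abundant of the group, had 163, 129 and 205 counts in Kir2.1-OE and 60.2, 143 and 114 in control (0.65, SE 0.30, adjusted p = 0.0999). Kif20b, also a cytokinesis motor, had 42.1, 34.0 and 51.8 counts against 15.05, 22.7 and 38.7 (0.74, SE 0.37, adjusted p = 0.122). Kif18b, which shortens astral microtubules, had 34.9, 26.0 and 41.3 counts against 7.02, 18.2 and 32.6 (0.82, SE 0.47, adjusted p = 0.173). In these 3 genes, 1 control library lay within the Kir2.1-OE range. Without control replicate 2 Kif20a was also called, and without control replicate 3 Kif18b and Kif20b were, so that the number of mitotic genes called was 2 and 3, respectively.

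Kif15, a second spindle-sliding motor, had 30.8, 19.99 and 27.5 counts in Kir2.1-OE and 17.1, 22.7 and 10.2 in control (0.63, SE 0.38, adjusted p = 0.185). Kif22, a chromosome-binding motor, had 74.9, 69.0 and 79.3 counts against 54.2, 70.0 and 41.7 (0.42, SE 0.25, adjusted p = 0.178). Both genes were higher on average, by less than the test requires. Kif2c, a microtubule depolymerase at centromeres, had 23.6, 17.0 and 37.0 counts against 15.05, 27.3 and 22.4 (0.25, SE 0.39, adjusted p = 0.613). Kif18a, which dampens chromosome movements, had 43.1, 40.0 and 39.1 counts against 32.1, 44.5 and 55.0 (-0.11, SE 0.27, adjusted p = 0.769). For Kif2c and Kif18a, the sign itself depended on 1 library.

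Genes of cell division outside the superfamily were examined beside them. Of 23 such genes, 5 were called higher (Mki67, Top2a, Cenpf, Hmmr and Prc1) and 0 lower, with a median log2 fold change of 0.34. Without offsets, this count lies near the background of 15.5% of all genes called higher. With the length and GC offsets described below, 4 of the 23 genes were called higher and 0 lower, at a median of 0.46. The shares of all genes were then 6.44% and 3.4%. The summed counts of the 23 genes were 2967, 2346 and 3484 in Kir2.1-OE and 2182, 2344 and 2328 in control. The groups were thus separated by 2 counts. Mki67, the proliferation marker Ki-67, was the highest at 2.52 (SE 0.33, adjusted p = 0.000396), with 219, 121 and 148 counts against 21.1, 41.8 and 21.4. Cdk1, the kinase that starts mitosis, was at -0.13 (SE 0.21, adjusted p = 0.631). None of the 23 genes was at 0 in any library.

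The promoters of the groups were compared with the RefSeq table for GRCm38.p6, which matched 7 of 10 axonal transport genes (9 promoters) and 11 of 12 mitotic genes (11 promoters, Kif2b included). The motifs searched on both strands of the 250 bases before each start were the CCAAT box and TTTGAA, a core found in promoters of many cell cycle genes. CCAAT was present in 4 of 9 axonal promoters (44.4%) and 7 of 11 mitotic promoters (63.6%), against 33.8% of all 32851 promoters. TTTGAA was present in 1 of 9 (11.1%) and 5 of 11 (45.5%), against 16.0%. These matches describe letters in the windows only. The 100 bases before the start are printed for Kif11, the called mitotic gene, and Kif5c, a called axonal gene, with capitals for the motifs, which do not overlap here and both read on the opposite strand (ATTGG and TTCAAA). The Kif11 window is chr19:37376282-37376381 (plus strand) and the Kif5c window, which holds neither motif, is chr2:49619186-49619285 (plus strand). The pair does not stand for its groups, since the same stretch of mitotic Kif2c held neither motif and that of the second Kif1a promoter held TTTGAA. Unlike the windows of Kif11 and Kif5c, these windows of Kif2c and Kif1a lie inside the annotated span of their gene.
Kif11: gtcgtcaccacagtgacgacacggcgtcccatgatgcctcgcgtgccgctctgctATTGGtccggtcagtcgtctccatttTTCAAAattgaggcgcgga
Kif5c: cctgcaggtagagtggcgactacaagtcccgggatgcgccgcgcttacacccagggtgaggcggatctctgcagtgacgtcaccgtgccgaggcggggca

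Among the other cargo kinesins, Kif13a, a vesicle motor linked to recycling endosomes, had 3822, 3372 and 2979.9 counts in Kir2.1-OE and 1319, 1626 and 1244 in control, and was called higher at 1.28 (SE 0.12, adjusted p = 0.000146). Kif13b (1.10) and the endosome motor Kif16b (0.72) were also called. Kif1c was not, because its log2 fold change of 0.57 (SE 0.10, adjusted p = 0.0015) lay under the fold threshold, but it was called in the fits lacking Kir2.1-OE replicate 3 (0.64), control replicate 2 (0.61) or control replicate 3 (0.62). Kif17, a dendritic and ciliary motor, was scarce and overlapped, with 37.0, 37.0 and 30.7 counts against 24.1, 35.4 and 11.2 (0.55, SE 0.39, adjusted p = 0.265). The median of these 5 genes was 0.72.

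Among the ciliary and signalling kinesins, Kif19a, which limits the length of motile cilia, stood out by abundance and change. It had 3511, 2847 and 2562 counts in Kir2.1-OE and 1061.5, 1543 and 1366 in control, a log2 fold change of 1.17 (SE 0.15, adjusted p = 0.000339). Per kb, its mean of 866 in Kir2.1-OE and 385.5 in control lay within the range of the axonal kinesins. Kif7, a regulator of Hedgehog signalling at the ciliary tip, was called higher at 0.88 (SE 0.11, adjusted p = 0.00037), but was at 0.34 and not called with the length and GC offsets described below. Kif24 (0.81, SE 0.31, adjusted p = 0.0504) missed the threshold but was called in the fit lacking Kir2.1-OE replicate 3 (0.99), Kif27 was at 0.27, and Kif9 had 61.6, 54.0 and 77.2 counts against 80.3, 80.0 and 72.3 (-0.27, SE 0.22, adjusted p = 0.329).

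Kif2a, a microtubule depolymerase that trims axon branches in neurons, and the atypical kinesins Kif26a and Kif26b, which act in signalling rather than transport, were all called higher. Kif26a had 292.5, 297 and 216 counts in Kir2.1-OE and 124, 154 and 112 in control (1.04, SE 0.18, adjusted p = 0.00154). Kif26b was at 0.71 (SE 0.21, adjusted p = 0.0176) and was not called without control replicate 3 (0.48). Kif2a had 2844, 2486 and 2267 counts against 1471, 1814 and 1678.5, with a log2 fold change of 0.61 (SE 0.10, adjusted p = 0.00129) that, like that of Kif5b, missed the fold threshold in the fits lacking Kir2.1-OE replicate 1 (0.51) and lacking control replicate 1 (0.54).

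Kinesin transcripts are long, and longer transcripts had higher fold changes across the whole data set. Among genes with a longest annotated transcript under 2000 nt, 2.44% were called higher, and this share was 6.68% from 2000 to 4000 nt, 19.9% from 4000 to 6000 nt, 44.5% from 6000 to 8000 nt and 64.0% at 8000 nt and over. The kinesins called higher were 1 of 9, 3 of 9, 8 of 10 and 5 of 6 in the last 4 of these classes, and no kinesin was under 2000 nt. The longest transcripts of the axonal genes were 3161 to 10233 nt (median 6615 nt) and those of the mitotic genes 2842 to 8943 nt (median 4819 nt).

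**Figure D4:**
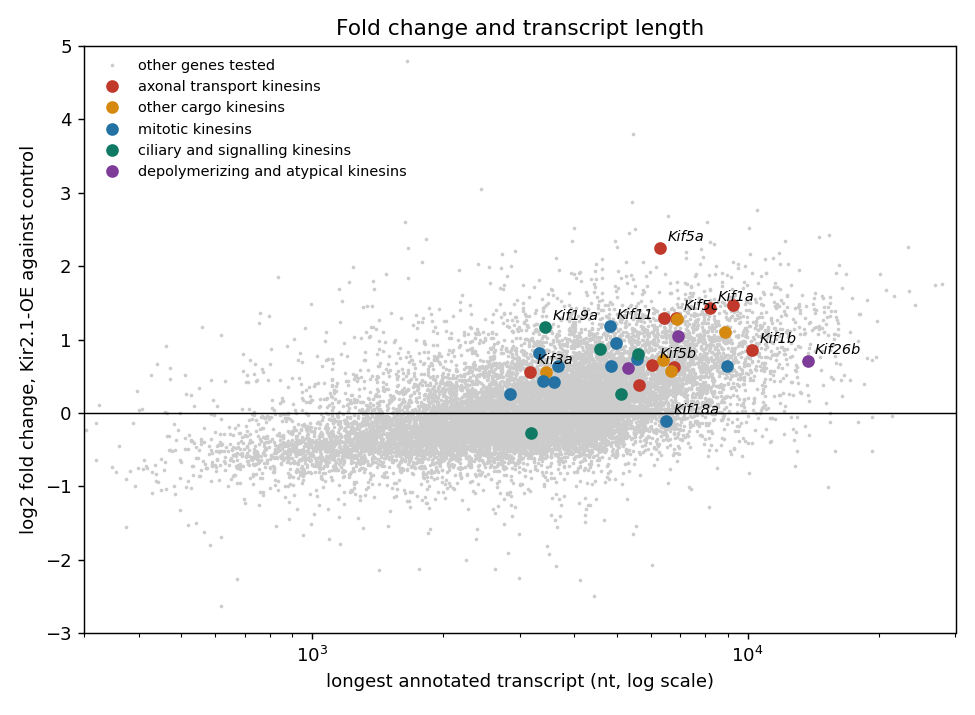
Log2 fold change (y axis, Kir2.1-OE against control) against the longest annotated transcript (x axis, nt, log scale) for the genes tested, with the kinesins in colour by role; 9 of 15198 genes lie outside the axes. The grey cloud climbs with length, from a median of -0.34 under 2000 nt to 0.81 at 8000 nt and over, and Kif5a at 2.24 lies near the top of the cloud.

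When length and GC content were entered as offsets, 8 kinesins were called higher and 0 lower, against 6.44% of all genes called higher and 3.4% called lower. The 5 axonal genes among them were Kif1a (0.59), Kif3a (0.60), Kif5a (1.60), Kif5c (0.78) and Kif21a (0.84). The other 3 were Kif11 (1.12), Kif13a (0.59) and Kif19a (0.80). Of the 17 kinesins called without offsets, 10 were no longer called. They were Kif1b (0.19), Kif3c (-0.018), Kif5b (0.46) and Kif21b (0.55) of the axonal genes, Kif13b (0.30), Kif16b (0.30), Kif7 (0.34), Kif26a (0.12), Kif26b (-0.21) and Kif2a (0.58), the last just under the fold threshold. Kif3b (-0.029) and Kif1c (-0.16), which had not been called, also turned slightly negative. The median of the axonal genes was then 0.57 and that of the mitotic genes 0.55, against -0.040 over all genes tested. With the median transcript of each gene in place of the longest one, the medians were 0.80 and 0.49, and 12 kinesins were called higher, against 10.7% of all genes.

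A stricter test asked whether the log2 fold change exceeded 0.6 (edgeR's glmTreat). It called 9 kinesins higher, against 5.44% of all genes. They were the 6 axonal genes Kif1a, Kif1b, Kif5a, Kif5c, Kif21a and Kif21b, together with Kif13a, Kif13b and Kif19a. The adjusted p of Kif11 was 0.0558, and 0 mitotic genes passed.

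Partners of the kinesins were examined as light chains, adaptors and activators, with 31 genes in the tables. Of these, 14 were called higher and 0 lower, compared with 15.5% and 5.08% of all genes tested. The median log2 fold change of the 31 partners was 0.57, and their longest transcripts were 1713 to 8885 nt (median 4154 nt). The highest values were those of Mapk8ip3 (1.44, SE 0.17, adjusted p = 0.000235), a JNK-interacting scaffold that links kinesin to axonal cargo, Map7d2 (1.19, SE 0.30, adjusted p = 0.00947), a recruiter of kinesin to microtubules, and Ppfia2 (1.14, SE 0.29, adjusted p = 0.00915), a liprin scaffold of the presynapse. The light chain Klc1 averaged 5419 ± 858 counts in Kir2.1-OE and 3548 ± 331 in control (SD, n = 3) and was called higher at 0.61 (SE 0.12, adjusted p = 0.00226). The lowest values were those of the mitochondrial GTPase Rhot1 (-0.16, SE 0.07, adjusted p = 0.0754), the lysosomal GTPase Arl8b (-0.13, SE 0.08, adjusted p = 0.181) and the adaptor Fez2 (-0.10, SE 0.07, adjusted p = 0.26). With the offsets, 4 of the 31 partners were called higher (Klc1, Map7d2, Ppfia2 and Grip1), against 6.44% of all genes. Mapk8ip3 was then at 0.58, just under the fold threshold.

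A further 5 kinesin genes have names outside the Kif series. Cenpe, the kinetochore kinesin that aligns chromosomes, had 125.2, 62.0 and 79.3 counts in Kir2.1-OE and 12.04, 33.6 and 14.2 in control, and was called higher at 2.13 (SE 0.42, adjusted p = 0.00269) and, with the offsets, at 1.73. Its groups did not overlap, and its longest transcript is 7910 nt. The minus-end-directed motors Kifc2 (0.92, SE 0.20, adjusted p = 0.00474), enriched in neurons, and Kifc3 (0.66, SE 0.13, adjusted p = 0.00277) were also called, Kifc3 not with the offsets (0.33). Kifc1, a spindle motor, was at 0.27 (SE 0.24, adjusted p = 0.363) and Kifc5b, a close relative of Kifc1 in sequence, at -0.47 (SE 0.45, adjusted p = 0.409), and reads shared between such copies make both uncertain.

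Some members share exons with other genes. In the annotation, 11 kinesins overlap a gene on the opposite strand (Kif2a, Kif3c, Kif4, Kif5b, Kif6, Kif7, Kif18a, Kif20a, Kif22, Kif26b and Kif27). On the same strand, Kif17 overlaps Sh2d5, and Kif1c and Kif27 each hold a microRNA gene listed at 0 in both genotypes. The strand setting of the counting is not given in the sources used here, so reads of such pairs may not have been told apart. Kif20a and Kif3c were estimated at values that were not whole in all 6 libraries. Cdc23, which overlaps Kif20a, averaged 3053 counts in Kir2.1-OE and 3873 in control, far above Kif20a itself. Pdzd11, which overlaps Kif4, averaged 1169 and 1454, and Mettl15, which overlaps Kif18a, 211 and 274, also above these kinesins. The overlapping genes with counts at Kif2a, Kif3c and Kif7 lay below the kinesin.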

How the data were processed

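Poly(A) RNA of 6 pools was sequenced in pairs of reads. Per the study's methods, the authors ran the nf-core RNA pipeline with standard parameters on mm10 and deposited Salmon expected counts per gene symbol, which are estimates divided neither by length nor by library size (6.95% of values were not whole). Tool versions and annotation are not given in the sources used here. Groups and replicate numbers came from the labels. Counts were rounded and tested on genotype with edgeR 4.0.16 in R 4.3.3 (TMM, filterByExpr, quasi-likelihood F test, Benjamini-Hochberg over 15303 genes), and SE is the absolute log2 fold change divided by the root of F. DESeq2 1.42.0, other scalings and filters, a replicate block, each library left out, glmTreat, and loess offsets (span 0.4) for the length and GC content of the longest GENCODE vM21 transcript were alternatives. Offsets from the median transcript were added after seeing the data. Of 24411 symbols, 23376 matched the annotation by symbol and 668 by an older one. The fitting was tested on simulated data.

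The kinesins, role groups, marker lists and motifs were chosen with earlier results of these data known. Values in each library are given for the axonal and mitotic genes and for the extremes of the other role groups, and for the 3 highest and lowest partners fold changes are given. The labels do not say how pools relate to litters, so p-values measure the spread between pools. Intervals and limits from counts cover counting error only. The header of the control replicate 1 table carries another replicate number than its label, and same-numbered libraries of the 2 genotypes correlated at -0.11, -0.23 and -0.21 in their deviations, so that the numbers were not treated as pairs. Kif25 and Kif28 were not analysed here.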

Additional observations from a re-analysis of the deposited data

How the results depend on the processing

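The 17 kinesins called higher were also called with DESeq2's size factors or Wald test, with library size alone, with no filter, and with the replicate block, which changed no call of the 34 kinesins (17 in all, 8 axonal, 1 mitotic). Whether the replicate numbers pair the libraries is not known from the labels. Upper quartile scaling gave 14, and leaving out 1 library 15 to 20. The offsets for length and GC content gave 8 kinesins higher (7 with the replicate block), of which 5 (4) were axonal, and axonal medians of 0.57 (0.55), or 0.80 with the median transcript. glmTreat gave 9 kinesins and 0 mitotic ones. Mitotic calls ranged from 1 to 3 over fits without 1 library. Signs turned with the offsets, the offsets with the block and, as the last value where 3 are given, the median transcript for Kif1c (-0.16, -0.16, -0.073), Kif3b (-0.029, -0.028, -0.10), Kif3c (-0.018, -0.035), Kif26b (-0.21, -0.18, -0.0094) and Kif27 (-0.039, -0.032, -0.036). Without 1 library, Kif2c ranged from -0.11 (without Kir2.1-OE replicate 3) to 0.46 and Kif18a from -0.29 to 0.085 (without control replicate 3). The cause of these changes was not tested. With 3 pools per genotype, single-gene exact tests cannot go below 0.1. At 15.4 to 136 counts the mitotic genes are among the least precise, as is the scarce Kif17.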

Other observations

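Lists of other cell types were summed to describe what else the dissected tissue held. The counts below stand beside 15.5% called higher and 5.08% called lower over all genes tested. Of 8 glia markers, 3 were called higher and 0 lower (median log2 fold change 0.48). The summed counts of the glia list were 395410 to 499370 in Kir2.1-OE and 282380 to 370100 in control. Of 8 supporting cell markers, 2 were called higher and 1 lower (median 0.06). Of 7 mesenchyme and bone markers, 3 were called higher and 0 lower (median 0.63). Of 3 melanocyte markers tested, 0 were called higher and 2 lower (median -1.81). Of 4 erythrocyte markers, 0 were called higher and 2 lower (median -0.79). Of 5 macrophage markers, 0 were called in either direction (median 0.25). Hair cell markers had 4 of 10 called higher and 1 lower (median 0.07). Mesenchyme and bone sums were 860740 to 1065700 in Kir2.1-OE against 455530 to 693110 in control. Supporting cell sums were 229130 to 244530 against 267710 to 363890. Melanocyte sums were 362 to 464 against 869 to 1061.5, erythrocyte sums 7177 to 8801 against 10998 to 31114, and macrophage sums 5029 to 5354 against 4592 to 4766. None of these sums overlapped, nor did the glia sums, whereas the hair cell sums did. Their part in the kinesin values was not tested.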
